A study of Saccharomyces cerevisiae with 2 samples.

Results

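The 56 genes RPS0A to RPS31 encode the proteins of the cytosolic small ribosomal subunit in the budding yeast Saccharomyces cerevisiae. They were looked up by their systematic names among 6207 gene features, 55 of which were members, in the numerical order of the proteins with the A copy before the B copy. They cover 32 proteins, 24 of them encoded by a pair of paralogous genes and 8 by a single gene. Each array compared RNA of a mid2 mutant in the BY4741 background after 4 h with 30 µg/ml Congo Red with RNA of cells from the same culture grown on without the dye, in rich medium at 24 °C. Both RNAs carry the mutation, so no value here bears on the lack of Mid2, a plasma membrane sensor of cell wall stress. The labels do not say what the mutation is beyond its name, nor whether it is 1 clone. The single group held 2 two-colour arrays with the dyes swapped, treated RNA being in Cy3 on array 1 and in Cy5 on array 2. The labels describe 2 cultures and 4 arrays a condition, but not whether the 2 arrays analysed here hold separate cultures, so the spread between them may be technical.

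The small subunit binds the messenger RNA and checks the pairing of codon and transfer RNA, and its proteins coat a core of ribosomal RNA. It is described by a head, a body and a platform, with the messenger entering between head and body and leaving beside the platform. Ribosomal protein genes of yeast are among the most highly transcribed of a growing cell. They are known to be switched together through the promoter factors Rap1, Fhl1 and Ifh1 under the growth signals of TORC1 and protein kinase A, and many stresses repress them for a time. Most are kept as duplicate pairs left by an ancient genome duplication, and the copies of a pair encode identical or nearly identical proteins. Because of that likeness, hybridisation of one copy's transcript to the other copy's feature cannot be separated here, and the copies of a pair are not independent measurements.

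Every value below is a log2 ratio as deposited. Positive values are taken to mean more transcript with Congo Red, but neither labels nor table state the direction. The choice rests on the columns correlating positively over the 2738 features measured on both arrays (Pearson r = 0.48, across genes, which are not independent replicates), although the dyes were swapped. Within the set described here that correlation was not seen. Over its 53 measured genes Pearson r was 0.21 and Spearman rho −0.21. Without RPS0A and RPS0B they were −0.36 and −0.34, so the members themselves give the choice no support. The medians of these features were −0.27 on array 1 and −0.18 on array 2, and −0.24 for the mean of the arrays, so a gene at −0.24 lies in the middle of all features. MID2 had no value on either array. No intensities were at hand, and the number of arrays limits the precision. A ratio cannot show whether a transcript was present: of the markers of a cells, the mating type of the strain, 4 of 6 had a value on both arrays, and of those of alpha cells 1 of 4, MF(ALPHA)2, with −0.98 and 0.069.

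Values on both arrays were at hand for 53 of the 56 genes, or 96.4% of the 55 with a row in the table, against 44.1% of all features. RPS19A and RPS30A had a row with no value, and RPS14A (YCR031C) was not analysed here. A feature named YCR031, with no strand letter, had −0.14 and 0.17 and was not counted as a member. No member had a value on 1 array only. The genes of the large subunit (RPL) were as complete, at 71 of 72, while those of the small subunit of the mitochondrial ribosome had both values in 19 of 32.

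The small subunit genes showed no change that passed a test. Their median mean log2 ratio was −0.18, which lay 0.059 above the median of all features, and 51 of the 53 means fell between −0.6 and 0.2. Limma, fitted over all 2738 features with the mean ratio tested against 0, called 0 of the 53 at a Benjamini-Hochberg adjusted p under 0.05, with adjusted p-values from 0.377 to 0.977. It called 0% of all features as well. At an unadjusted p under 0.05 it gave 0 of the 53, against 13.6% of all features. The limits of size asked for 2-fold in the mean and 1.5-fold on each of the 2 arrays, with equal sign. Past them were 0 members on the positive and 0 on the negative side, against 4.13% and 2.81% of all features. The moderated standard errors ran from 0.25 to 0.79 on the log2 scale with a median of 0.26. The 95% intervals of 38 members lay wholly within 2-fold in either direction. For the other members a change of 2-fold or more was within the interval. The intervals rest on arrays whose spread may be technical and on ratios not centred, so they do not show that any member stayed level.

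**Figure D1:**
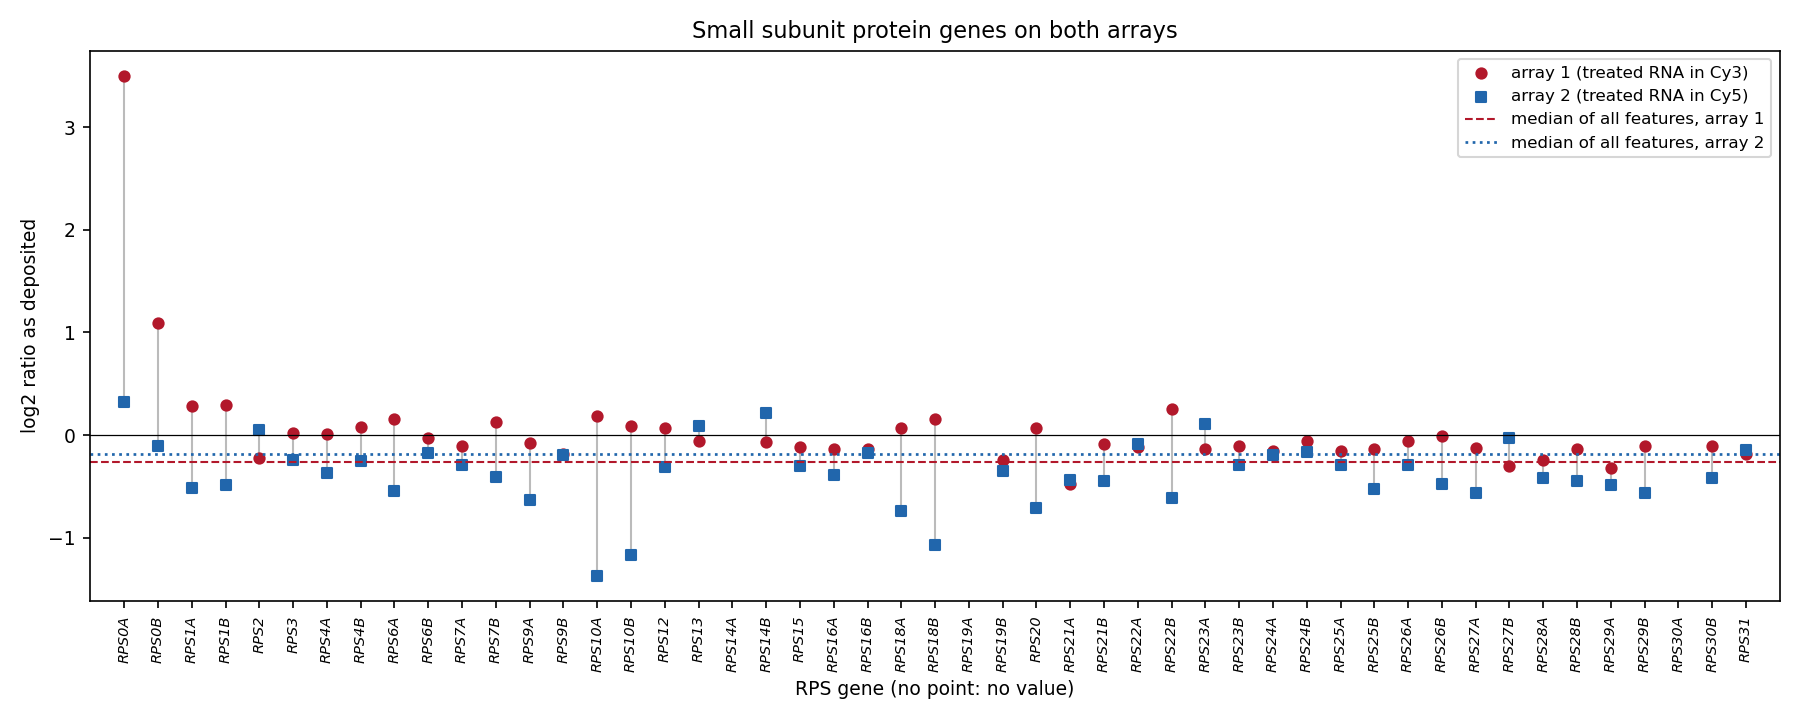
Log2 ratio as deposited (vertical axis) of the RPS genes described, in numerical order (horizontal axis), array 1 as red circles and array 2 as blue squares, a grey line joining the values of a gene. The horizontal lines mark the medians of all 2738 features, −0.27 on array 1 (dashed) and −0.18 on array 2 (dotted). RPS0A and RPS0B stand out at 3.50 and 1.09 on array 1, and RPS10A, RPS10B and RPS18B lie below −1 on array 2.

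On array 1 the small subunit genes lay close together and close to 0. Apart from RPS0A and RPS0B, all values were between −0.48 and 0.30, and the interquartile range over the 53 was 0.20 against 0.74 for all features. Within 0.5 of 0 were 51 members, or 96.2%, against 53.5% of all features. On array 2 the genes were spread more like the rest, with an interquartile range of 0.31 against 0.50, and 41 members (77.4%) within 0.5 of 0 against 73.4% of all features. RPL genes had interquartile ranges of 0.18 on array 1 and 0.43 on array 2, and mitochondrial small subunit genes 0.46 and 0.23. These spreads are given as a description, with no test between the lists.

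The arrays placed the set on different sides of the middle. The median of the RPS genes was −0.060 on array 1, 0.21 above that of all features, and −0.35 on array 2, 0.16 below it. Array 1 gave the higher value for 45 of the 53 genes, against 41.6% of all features. Above the median of all features on array 1 and below it on array 2 were 37 genes, or 69.8%, against 20.7% of all features. For 30 genes both values were below 0, a share of 56.6% against 54.5% of all features, so this count is near the background. Above 0 on both arrays were 2 genes, RPS0A among them, 3.77% against 15.9%. RPL genes showed the same placement, with medians of −0.054 and −0.30 and 43 of 71 genes above the median on array 1 and below it on array 2. The dye of the treated RNA differed between the arrays in the same way, and its part in this placement was not tested.

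If the ratios had never been turned and were Cy5 over Cy3 on both arrays, the treatment would lie in the difference between them. In that reading, with each array centred on its median, 48 of the 53 genes, or 90.6%, lay below 0, against 47% of all features. The median was −0.19, against 0.019 for all features. Limma then called 0 of the 53 at an adjusted p under 0.05 and 0 at an unadjusted p under 0.05, against 0% and 0.548% of all features. RPS0A gave −1.63 and RPS10A −0.82 in that reading, so the sign of RPS0A depends on it.

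**Figure D2:**
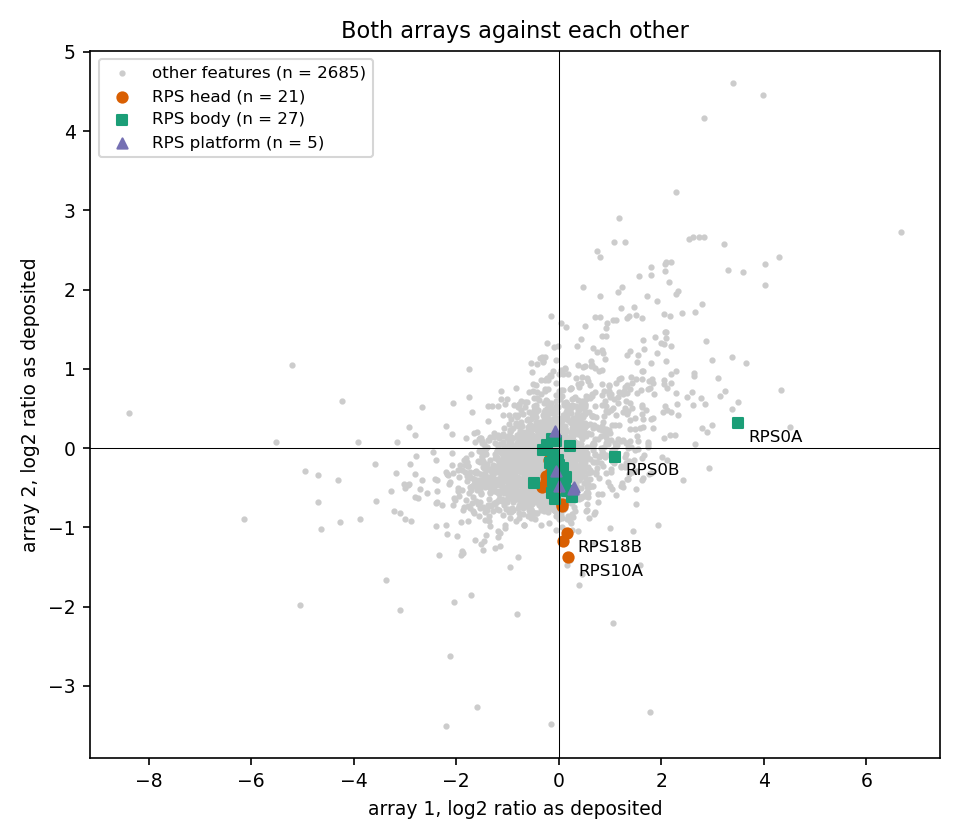
Log2 ratio on array 2 (vertical axis) against array 1 (horizontal axis) for the 53 RPS genes, coloured by the place of the protein in the subunit, and for the other 2685 features in grey. The RPS genes form a narrow column near 0 on array 1 from which RPS0A and RPS0B reach to the right and RPS10A and RPS18B downward.

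The highest ratios on array 1 belonged to the genes of Rps0, a protein of the body that joins late and, with Rps2 and Rps21, is needed for the last cuts of the small subunit's ribosomal RNA. RPS0A (YGR214W) had 3.50 on array 1, an 11.3-fold ratio, and 0.32 on array 2. RPS0B (YLR048W) had 1.09 on array 1 and −0.11 on array 2. Both copies were thus high on array 1, and only the A copy was above 0 on array 2. The mean of RPS0A was 1.91 ± 2.25 (SD, n = 2), with a 95% interval from −0.20 to 4.01 (limma, unadjusted p = 0.0663, adjusted p = 0.377). That of RPS0B was 0.49 ± 0.85 (SD, n = 2; limma, adjusted p = 0.553). Without array 1 the mean of RPS0A would be 0.32 and without array 2 it would be 3.50, so 1 array decides its size. RPS0A stood at the 98.5th percentile of the means of all features and RPS0B at the 89.2nd.

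Genes of the partners of Rps0 lay among the other members. RPS2 (YGL123W), a single gene whose protein lines the channel where the messenger enters, had −0.22 and 0.046. RPS21A (YKR057W) had −0.48 on array 1, the lowest RPS value there, and −0.44 on array 2. RPS21B had −0.089 and −0.45. RPS21A was the third lowest mean of the set at −0.46 ± 0.031 (SD, n = 2; limma, adjusted p = 0.457), with both arrays close together. RPS0A and RPS21A, whose proteins touch in the subunit, were at opposite ends of array 1.

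The lowest values on array 2 were those of 5 genes of head proteins. RPS10A (YOR293W) had 0.18 on array 1 and −1.37 on array 2, and its copy RPS10B (YMR230W) 0.085 and −1.17. Rps10 sits in the beak of the head beside the entry of the messenger. The means were −0.59 ± 1.10 and −0.54 ± 0.88 (SD, n = 2; limma, adjusted p = 0.541 and 0.524), the 2 lowest of the set. RPS18A (YDR450W) had 0.070 and −0.73, and RPS18B (YML026C) 0.16 and −1.07. Rps18 reaches from the head toward the large subunit and the transfer RNA. RPS20 (YHL015W), a single gene whose protein lies near Rps10 in the head and is ubiquitinated when ribosomes collide, had 0.068 and −0.71. These 5 genes were all slightly above 0 on array 1 and were the only members below −0.7 on array 2, a share of 9.43% against 6.39% of all features, which is near the background. The mean of RPS18B was −0.45 ± 0.87 and that of RPS20 −0.32 ± 0.55 (SD, n = 2; limma, adjusted p = 0.570 and 0.601).

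Other genes of the head were less low on array 2. RPS3, a single gene for a protein of the messenger entry that takes part in the quality control of stalled ribosomes, had 0.024 and −0.24. RPS12, of the beak, had 0.065 and −0.31. Both single genes were at 0 within 0.1 on array 1 and below 0 on array 2. RPS15, whose protein sends a tail toward the decoding site, had −0.12 and −0.30, and RPS31, which is made as a fusion with ubiquitin, −0.18 and −0.15. Over the 8 single-copy genes the median of the mean was −0.14, against −0.20 for the 21 measured A copies and −0.18 for the 24 B copies.

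Duplicated head genes gave the following values. RPS16A, whose protein touches the transfer RNA, had −0.13 and −0.39, and RPS16B −0.13 and −0.17. RPS19B had −0.25 and −0.35; mutations of the human RPS19 gene are known from Diamond-Blackfan anaemia. Each of these genes was lower on array 2 than on array 1. RPS25A, for a protein needed by some viral messengers, had −0.15 and −0.29, and RPS25B −0.13 and −0.52. RPS28A, near the exit of the messenger, had −0.24 and −0.42, and RPS28B, whose own messenger is known to be controlled by its protein, −0.13 and −0.45. RPS29A, for a small zinc-binding protein, had −0.32 and −0.49, and RPS29B −0.10 and −0.57. RPS29A was the fifth lowest mean at −0.40 ± 0.12 (SD, n = 2; limma, adjusted p = 0.485). Of the 21 measured head genes 20 were higher on array 1 than on array 2, and on array 2 only 2 exceeded the median of all features. Being higher on array 1 was not particular to the head. It held for 21 of the 27 body genes, 4 of the 5 platform genes and 55 of the 71 RPL genes, against 41.6% of all features.

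Platform genes flank the exit of the messenger. RPS1A (YLR441C) had 0.28 and −0.52, and RPS1B (YML063W) 0.30 and −0.49. RPS14B had −0.067 and 0.21, one of 5 means above 0 in the set (0.074 ± 0.20, SD, n = 2; limma, adjusted p = 0.876); its messenger is known to be held back by its own protein. RPS26A had −0.060 and −0.29, and RPS26B −0.0036 and −0.48. RPS1 and RPS26 thus had the same order of arrays as most genes of the set, and RPS14B the opposite one.

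Among genes of the body the values on array 2 were less low, with a median of −0.21 against −0.39 for the head and −0.48 for the 5 platform genes. On array 2 the median of all features was exceeded by 11 of the 27 body genes. RPS13, a single gene, had −0.059 and 0.090. RPS23A, for a protein of the decoding centre, had −0.14 and 0.11, and RPS23B −0.11 and −0.29. RPS13, RPS23A, RPS2 and RPS14B were the only members with a value below 0 on array 1 and above 0 on array 2. This held for 4 of the 53 members, against 422 of the 2738 features. The difference between head and body was not tested.

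The further body genes given here by name were below 0 on array 2. RPS4A had 0.0073 and −0.37, and RPS4B 0.080 and −0.25. RPS6A, whose protein is phosphorylated under TORC1, had 0.16 and −0.54, and RPS6B −0.027 and −0.17. RPS7A had −0.11 and −0.29, and RPS7B 0.13 and −0.41. In these pairs both copies were lower on array 2, by 0.15 to 0.70. RPS9A, for a protein of the messenger entry that bears on translational accuracy, had −0.074 and −0.64, and RPS9B −0.18 and −0.19. RPS22A had −0.12 and −0.083, and RPS22B 0.25 and −0.61. RPS22A and RPS9B had nearly the same value on both arrays, unlike their copies. RPS24A had −0.15 and −0.19, and RPS24B −0.054 and −0.16. RPS27A, for a zinc finger protein, had −0.13 and −0.57, and RPS27B −0.30 and −0.029. RPS30B had −0.11 and −0.41. In this group RPS22A and RPS27B alone were higher on array 2 than on array 1.

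**Figure D3:**
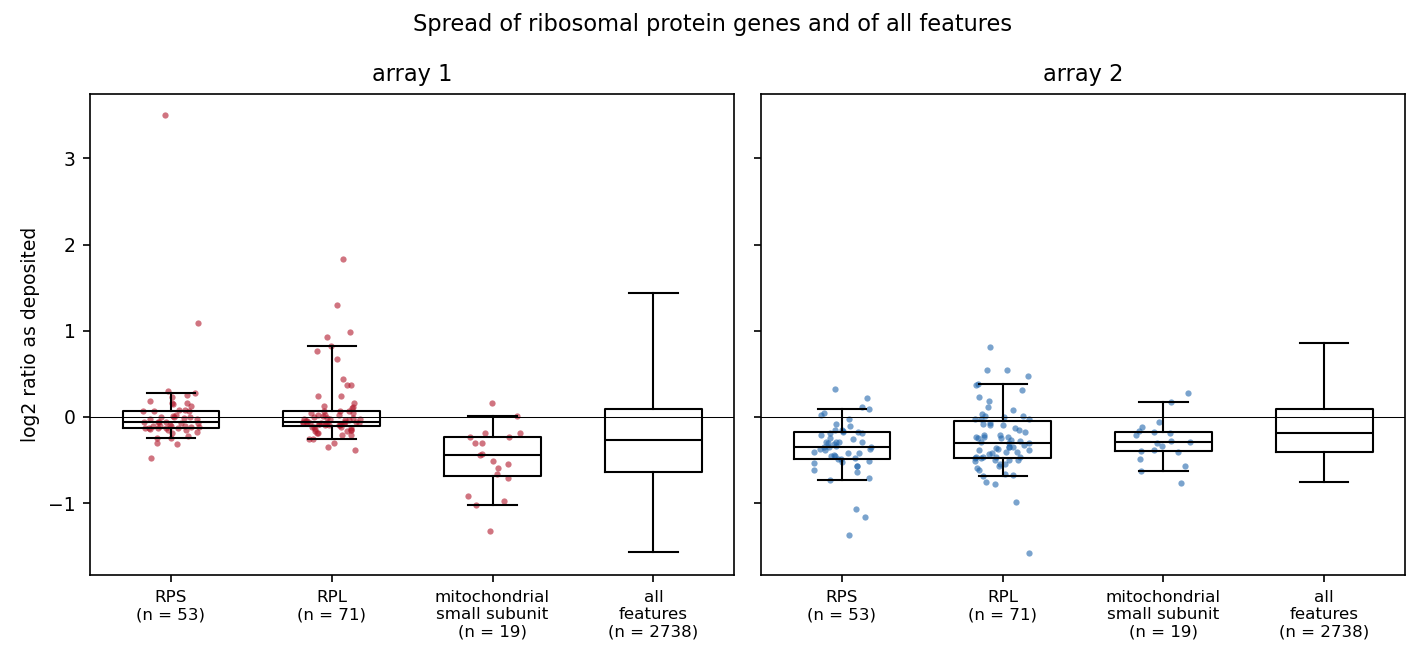
Log2 ratios as deposited on array 1 (left) and array 2 (right) for RPS genes, RPL genes, mitochondrial small subunit protein genes and all features. Boxes span the quartiles with the median as a line, whiskers reach the 5th and 95th percentiles, and points are single genes (not drawn for all features). The RPS box is narrow on array 1 (interquartile range 0.20) and on array 2 overlaps that of all features, with a lower median.

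The A and B copies could be set side by side in 21 of the 24 pairs. The median absolute difference between the copies, A minus B averaged over the arrays, was 0.090 on the log2 scale. It was 0.098 on array 1 and 0.20 on array 2. For the 29 complete RPL pairs the same measures were 0.088, 0.053 and 0.21. On both arrays the copies lay within 0.25 of each other in 12 of 21 RPS pairs and 16 of 29 RPL pairs. With 2 arrays the smallest two-sided p that an exact sign-flip test of a pair can give is 0.5, so no pair was tested.

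No copy was generally above the other. The A copy was above the B copy on both arrays in 2 pairs, RPS0 among them, and the B copy above the A copy on both in 4 pairs, RPS1, RPS4 and RPS24 among them. In the other 15 pairs the order changed between the arrays. RPL pairs divided likewise, into 4, 6 and 19. Were the ratios never turned, the A copy would be above on both arrays in 9 pairs and the B copy in 6. These counts thus rest on the reading of the direction.

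RPS0 was the 1 pair whose copies differed by over 1 on either array. A minus B was 2.41 on array 1, or 5.31-fold, and 0.43 on array 2, a mean of 1.42 ± 1.40 (SD, n = 2). For RPS21 the difference was −0.39 and 0.014, a mean of −0.19 ± 0.29 (SD, n = 2). The RPS0 and RPS21 copies differed mainly on array 1. For RPS23 the difference was −0.033 and 0.41 (mean 0.19 ± 0.31, SD, n = 2). For RPS27 it was 0.17 and −0.54 (mean −0.18 ± 0.50, SD, n = 2). Apart from RPS0, the sign differed between the arrays in each of these pairs. A mean over the arrays hides differences of opposite sign. For RPS22 they were −0.37 on array 1 and 0.53 on array 2, a mean of only 0.082 ± 0.64 (SD, n = 2).

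At the other end, RPS1 had differences of −0.018 and −0.032, a mean of −0.025 ± 0.010 (SD, n = 2). Both copies of RPS1 were high on array 1 and low on array 2 by nearly the same amount, so that they differed far less from each other than each differed between the arrays. RPS10 was similar, its copies differing by 0.098 and −0.20 while each was lower on array 2 than on array 1 by over 1.

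Across the 21 pairs the B copy followed the A copy on array 1 (Pearson r = 0.90, Spearman rho = 0.70), but this r rests in part on RPS0 and was 0.58 without it. On array 2 r was 0.58 and rho 0.28. Without RPS10 and RPS18, chosen after their values were seen, r on array 2 was 0.048, so the likeness of copies there rests on these pairs. For the RPL pairs r was 0.64 and 0.73. These are descriptions across pairs whose copies share an array and can share sequence, and no p is given.

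**Figure D4:**
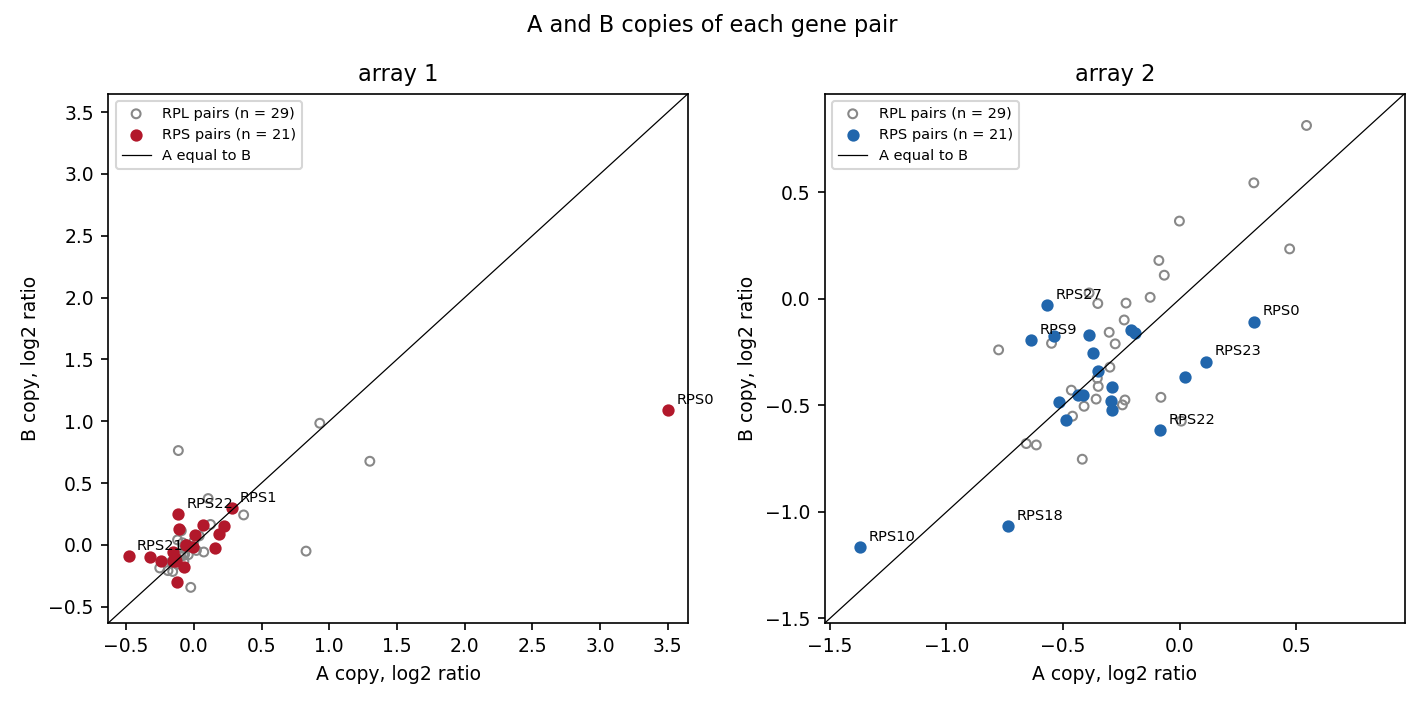
Log2 ratio of the B copy (vertical axis) against the A copy (horizontal axis) on array 1 (left) and array 2 (right) for 21 RPS pairs (filled) and 29 RPL pairs (open), with the line of equal values. RPS0 lies far to the right of the line on array 1, and RPS10 and RPS18 lie at the lower left on array 2.

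Genes that build, control or accompany the small subunit were described from lists chosen beside the members. Of 46 assembly factors 19 had values on both arrays, with a median mean of −0.24 that lay 0.0060 above that of all features. Limma called 0 of the 19 at an adjusted p under 0.05, and 1 at an unadjusted p under 0.05, against 0% and 13.6% of all features. The highest were TSR1, a late factor related to GTPases, at 0.40 ± 0.19 and the GTPase gene BMS1 at 0.38 ± 0.76 (SD, n = 2). Lowest was UTP6, of the early processome, with −1.36 and −0.85, a mean of −1.11 ± 0.36 (SD, n = 2; limma, adjusted p = 0.320). UTP6 was the 1 factor of the 19 past the limits of size, against 2.81% of all features on the negative side. TSR2, the chaperone of Rps26, had −0.57 and −0.55, a mean of −0.56 ± 0.015 (SD, n = 2; limma, adjusted p = 0.397). The genes of its client, RPS26A and RPS26B, had means of −0.18 and −0.24.

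Regulators of ribosomal protein genes were mostly without values, 4 of 14 having both. FHL1, the forkhead factor bound at these promoters, had −1.70 and −1.85, a mean of −1.78 ± 0.11 (SD, n = 2; limma, unadjusted p = 0.00138, adjusted p = 0.135). CRF1, a corepressor that competes for Fhl1, had −1.79 and −0.17, a mean of −0.98 ± 1.14 (SD, n = 2; limma, adjusted p = 0.407). DOT6, a repressor of ribosome biogenesis genes, gave −0.24 ± 0.16, and FPR1, a prolyl isomerase found at some of these promoters, 0.11 ± 0.49 (SD, n = 2). FHL1 was thus low on both arrays and past the limits of size while the RPS genes were not, and neither passed limma after adjustment. A link between FHL1 and the RPS genes was not tested. FHL1 was the 1 regulator of the 4 past these limits, against 2.81% of all features on the negative side. Of the 4, limma called 0 at an adjusted p under 0.05, against 0% of all features. At an unadjusted p under 0.05 it called 1, against 13.6%. RAP1, IFH1 and SFP1 had no value.

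Partners of the finished subunit had both values in 6 of 7 genes and 0 calls, against 0% of all features. RLI1, the recycling factor, was highest at 0.52 ± 0.17 and ASC1, the scaffold protein on the head, next at 0.46 ± 0.30 (SD, n = 2). The initiation factor gene SUI1 gave −0.39 ± 0.16 and GCN1, which senses stalled ribosomes, −0.70 ± 1.16 (SD, n = 2). ASC1 was above 0 on both arrays, with 0.67 and 0.26, unlike any gene of a head protein in the RPS set. Among the ubiquitin genes RPS31 gave −0.17 ± 0.025, RPL40A −0.29 ± 0.52, RPL40B −0.37 ± 0.44 and the polyubiquitin gene UBI4 −0.45 ± 0.83 (SD, n = 2; limma, 0 of 4 called). On array 2 UBI4 had −1.04, RPL40A −0.66 and RPL40B −0.68, against −0.15 for RPS31.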

How the data were processed

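The data were 1 table of log2 ratios deposited by the authors, 1 per feature and array, with direction, channel order and normalization not given in the sources used here. The base of the logarithm was inferred: raising 2 to each of the 2832 and 3440 values gave, up to a relative 3e-09, a number of 4 decimals. The reason for empty cells is likewise not given in these sources. Ratios were used as deposited, with no centring. The 2 control features were left out. Systematic names were matched to the RefSeq gene table of assembly R64 (5654 matched, 553 did not), used for names and gene order only, since no build is named for the array. The mean ratio was tested against 0, two-sided, with limma 3.58.1 (lmFit, eBayes; R 4.3.3) over all features with both values, with Benjamini-Hochberg adjustment. Intervals are 95% intervals from the moderated standard error, and SD is that of the 2 arrays. Pairs and lists were described without a test.

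The members, the lists, the place of each protein in the subunit and the genes named were chosen with earlier results of these data known. Full statistics were planned for the 5 highest and 5 lowest means, the single-copy genes and the pairs with the 5 largest and 3 smallest differences, and for the 2 highest and 2 lowest of each other list. A few of these genes and pairs are not reported here by name, though they enter the counts and medians. Alternatives were centring, scaling and quantile normalization, ratios read as never turned, other thresholds and limits, robust moderation, other treatment of empty cells, pairs averaged, and each array left out. Plots come from Python 3.11.15 and matplotlib 3.10.9.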

Additional observations from a re-analysis of the deposited data

How the results depend on the processing

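Limma called 0 small subunit genes under each alternative run: centring, scaling, quantile normalization, ratios read as never turned, robust moderation and an adjusted p under 0.10. At an unadjusted p under 0.05 scaling and quantile normalization gave 1 gene each, RPS0A, against 0 as deposited, and scaling took RPS0A past the limits of size (1 positive gene). With 1 array alone, a value with no test, 0 to 2 genes were past 2-fold on the positive side and 0 to 3 on the negative side. The shares of all features under scaling, quantile normalization and 1 array alone are not given here. These counts therefore cannot be read as high or low for the set. The position of the median against all features was −0.21 with ratios read as never turned. The other settings left it within 1 SD between the arrays (0.26), from −0.16 on array 2 to 0.21 on array 1, and it was −0.0019 after scaling, so its sign is not settled. Centring turned the sign of the mean of 30 of the 53 genes, which lay 5 positive and 48 negative as deposited and 35 positive and 18 negative after centring. Scaling turned 16 and quantile normalization 0. The median of the means of all features was −0.24 as deposited and −0.016 after centring. Shares of all features by the sign of the mean are not given here, so these counts cannot be read as particular to the set. The median absolute difference between copies ranged from 0.098 to 0.20 with 1 array left out, and was 0.20 over all pairs with both copies on array 2. The A copy was above the B copy in 2 pairs on both arrays, in 8 to 11 on a single array, and in 9 with ratios never turned. The B copy was above in 4 pairs on both, in 10 to 13 on a single array, and in 6 with ratios never turned. Leaving out RPS0A and RPS0B, an alternative chosen after seeing the data, gave 0.059 for the median and 0.086 for the copies. The causes were not tested. Each ratio already pairs treated and untreated RNA, and no further block could be fitted with 1 group.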

Other observations

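Several small subunit genes lie next to another ribosomal protein gene in the order of protein-coding genes. Of 8 such neighbour pairs 7 had values for both genes on both arrays. RPS16A (−0.13 on array 1 and −0.39 on array 2) lies beside RPL13B (0.016 and −0.41). RPS16B (−0.13 and −0.17) lies beside RPL13A (−0.081 and −0.35). RPS19B lies beside RPL18B, which had −0.045 and −0.47, and RPS15 beside RPP2A, with 0.14 and −0.17. RPS14B (−0.067 and 0.21), RPS22A (−0.12 and −0.083) and RPL39 (0.45 and −1.59) follow each other, and the last had the widest gap between the arrays. RPS9B and RPL21A, the seventh pair, had −0.18 and −0.19 against −0.015 and −0.46.

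The next gene beside RPS0A with a value was RSM27, of the mitochondrial ribosome, with −0.67 and −0.062, and beside RPS0B it was MLO50, with −1.90 and −0.94. RPS18A lies beside UTP6, whose values of −1.36 and −0.85 are given above, and YHP1, with 0.051 and 0.11. These neighbours were looked up after the values of the members had been seen.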
